A study of Mus musculus with 12 samples.

Results

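The genes described here are 50 mouse genes whose products circulate in blood plasma: albumin and other carrier proteins, protease inhibitors, the complement system, and the coagulation and anticoagulant factors. They were taken by symbol from a fixed list of names, 50 of the 26301 genes in the count table, by a rule that uses no measured value, though the list was drawn up with earlier results of these data known. All 50 were counted in every library and passed edgeR's filter on low counts, as did 13882 genes in all. Poly(A) RNA was sequenced from 4 control livers of wild-type mice, from 4 spontaneous liver tumors with the genotype Alb-Cre-E2f7 E2f8 knockout (libraries labelled DKO) and from 4 such tumors with the genotype Alb-Cre-Rb1 E2f7 E2f8 knockout (libraries labelled TKO). E2f7 and E2f8 encode atypical E2F repressors of cell cycle genes, and Rb1 encodes the retinoblastoma protein. Cre was driven by the albumin promoter, so that the deletions were aimed at hepatocytes and left the vessels, immune cells and connective tissue of a tumor with intact alleles. All mice were described as adult, were bred into the FVB strain and were killed at a humane end-point in an aging study, so that livers and tumors were not matched for a fixed age. The controls differ from the tumors in genotype and in tissue state together, and the effects of the deletions and of tumor growth cannot be told apart in those comparisons.

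Hepatocytes make most plasma proteins and secrete them straight into the blood, which gives their transcripts a large place in liver RNA. Complement is a cascade of proteases that is started by antibodies, by lectins that bind microbial sugars, or by spontaneous turnover of C3, and that ends in a pore made of the terminal components. Coagulation is another cascade, in which factors made in the liver turn prothrombin into thrombin and fibrinogen into fibrin, while antithrombin, protein C and other inhibitors restrain it.

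Libraries held between 9165812 and 16424973 counts. Levels below are CPM (counts scaled to the size of the library, with TMM factors from edgeR), and values for a group are given in the order of its replicates 1 to 4. Differences are log2 fold changes from edgeR's quasi-likelihood test on all 12 libraries, with the standard error (SE) and a Benjamini-Hochberg adjusted p over all 13882 genes, and a gene passed at an adjusted p under 0.05. Rb1 was at 3.21 to 5.47 CPM in the libraries labelled TKO and at 6.52 to 11.3 CPM in the other 8, without overlap. For E2f7 and E2f8 the values of both tumor genotypes overlapped those of the control livers or were above them. Reads were summed over whole genes, deleted exons and others alike, so these counts do not check the label DKO. Of the 12 hepatocyte markers outside the 50 genes, all passed the filter on low counts, and their summed level was 25620 to 33230 CPM in control livers, 17030 to 31290 CPM in libraries labelled DKO and 13690 to 30800 CPM in libraries labelled TKO. The sum was thus at least 13690 CPM in every tumor, and Apoa1 was its largest part in every library. Against control livers, the log2 fold change was above 0 for 2 of 12 markers in libraries labelled DKO. It was above 0 for 1 of 12 in libraries labelled TKO. Over all genes 51.6% and 52.5% were above 0. Cps1 was at 2852 to 4727 CPM in control livers, at 810 CPM in DKO 4 and at 453 CPM in TKO 4. In the other tumors it was at 1916 to 4099 CPM. In bulk tissue, fewer hepatocytes and less RNA of a gene per hepatocyte cannot be told apart.

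The 50 genes took a large and uneven share of the tumor libraries. In control livers they made up 16.7%, 18.1%, 18.4% and 17.2% of all counts. In the libraries labelled DKO the share was 35.0%, 28.6%, 21.1% and 20.7%, above every control liver. As a percent of the TMM-scaled total, DKO 1 and DKO 2 stayed above the controls, at 44.0% and 29.8%, while DKO 3 and DKO 4, at 18.8% each, lay within the control range of 15.9% to 20.4%. In the libraries labelled TKO the share of all counts, without TMM scaling, was 24.7%, 30.9%, 16.3% and 10.7%, on both sides of the controls. The mean share was 17.6% ± 0.757, 26.3% ± 6.82 and 20.7% ± 8.955 (SD, n = 4 each). Alb alone took 6.57% to 10.1% of the counts of control livers, 11.95% to 22.7% of those labelled DKO and 4.82% to 18.9% of those labelled TKO. The other 49 genes together took 8.22% to 10.2%, 8.56% to 12.2% and 5.84% to 11.96%, so that the groups overlapped once albumin was set aside.

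**Figure D1:**
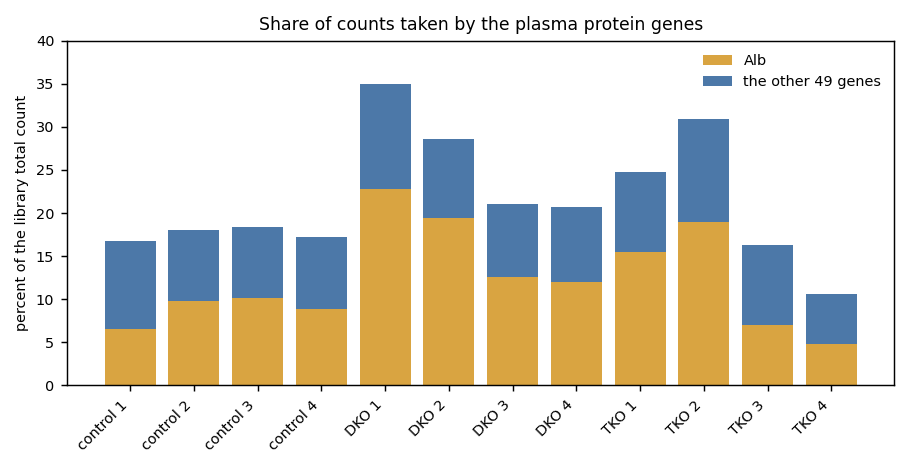
The vertical axis is the percent of each library's total count taken by Alb (lower part of the bar) and by the other 49 genes (upper part), for the 4 control livers, the 4 libraries labelled DKO and the 4 labelled TKO. DKO 1 reaches 35.0% and TKO 4 only 10.7%, while the control livers lie between 16.7% and 18.4%.

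No member passed edgeR's test in any comparison. Between libraries labelled DKO and control livers 0 of 50 passed, where 2.42% of all tested genes did. Between libraries labelled TKO and control livers 0 of 50 passed, against 0.0864% of all genes, and between the tumor genotypes 0 of 50, against 0% of all genes. These comparisons with control livers use the same 4 control libraries and are not independent of each other. The estimates were wide: the median SE of a member was 0.31 on the log2 scale and the median distance from the estimate to the end of its 95% interval was 0.68, so that changes of less than that size were not resolved for a typical member.

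Without adjustment, the members with p under 0.05 were all on the low side. Against control livers, 7 members were lower in libraries labelled DKO (14% of the 50, beside 11.1% of all genes) and 0 were higher (beside 12.9%). The 7 were Ttr, Mbl1, Mbl2, C8g, F13b, Klkb1 and Proc. In libraries labelled TKO 4 were lower (C8g, F13b, Klkb1 and Cpb2, 8% beside 6.33%) and 0 were higher (beside 9.94%). Between the genotypes 2 were lower in libraries labelled TKO (F9 and Cpb2, 4% beside 3.84%) and 0 were higher (beside 5.16%). The shares on the low side were near those of all genes. DESeq2, the tool of the study's methods, passed 6 members in libraries labelled DKO as lower than in control livers (Ttr, Mbl2, C8g, F13b, Klkb1 and Proc, 12% beside 4.75% of all genes) and 0 as higher (beside 5.7%). It passed F13b alone as lower in libraries labelled TKO (2% beside 1.49%), with 0 higher (beside 2%), and 0 between the genotypes in either direction (beside 0.398%).

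In libraries labelled DKO, the log2 fold change against control livers was below 0 for 29 of 50 members and above 0 for 21. Over all genes 51.6% were above 0. The median of the members was -0.09 beside 0.02 over all genes, with a range from -1.02 to 0.98. Single libraries moved this: without DKO 1 the value was below 0 for 38 members with a median of -0.37, without DKO 2 the median was -0.0143 and without control 1 -0.0499, and without DKO 3 or DKO 4 the count was 24 and the median turned to 0.0315 and 0.0143. In libraries labelled TKO it was below 0 for 39 of 50 and above 0 for 11, where 52.5% of all genes were above 0. The median was -0.18 beside 0.02, with a range from -0.90 to 0.79. Without TKO 2 the count was 45 and the median -0.38, and without TKO 4 they were 28 and -0.0916. With total counts as the only scaling they were 30 and -0.0684, beside a median of 0.17 over all genes. Between the genotypes the log2 fold change was below 0 for 26 of 50 and above 0 for 24, where 51.25% of all genes were above 0. The median was -0.03 beside 0.01. Without DKO 1 this last count was 15 and the median 0.15, without DKO 3, DKO 4 or TKO 2 the median was -0.13, -0.11 and -0.25, without DKO 2 or TKO 3 -0.0671 and -0.0758, without TKO 1 or TKO 4 0.00787 and 0.0882, and without DKO 1 and TKO 4 together the count was 11.

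**Figure D2:**
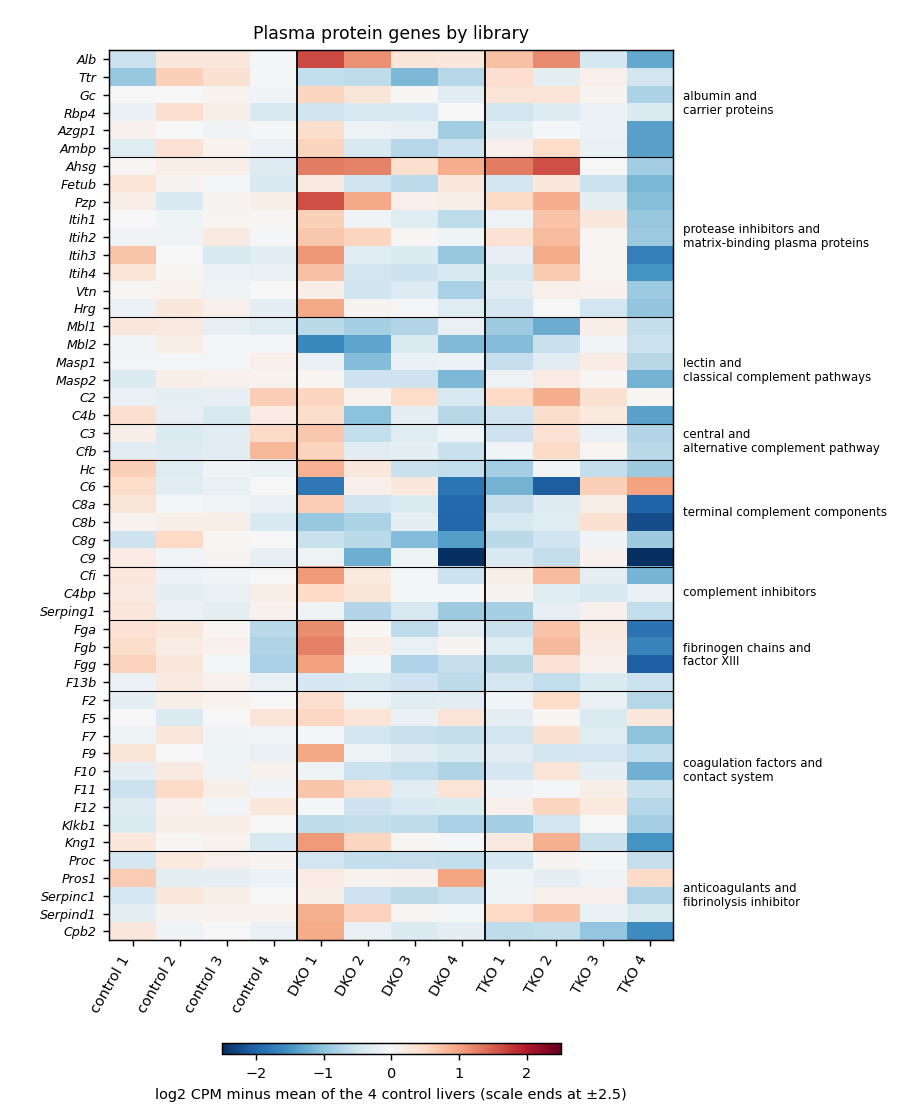
Each row is one of the 50 genes, grouped by role, and each column a library; the color is log2 CPM minus the mean of the 4 control livers, with blue below and red above 0. The columns of DKO 1 and TKO 2 are mostly red and that of TKO 4 mostly blue, and C9 is darkest in DKO 4 and TKO 4.

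**Figure D3:**
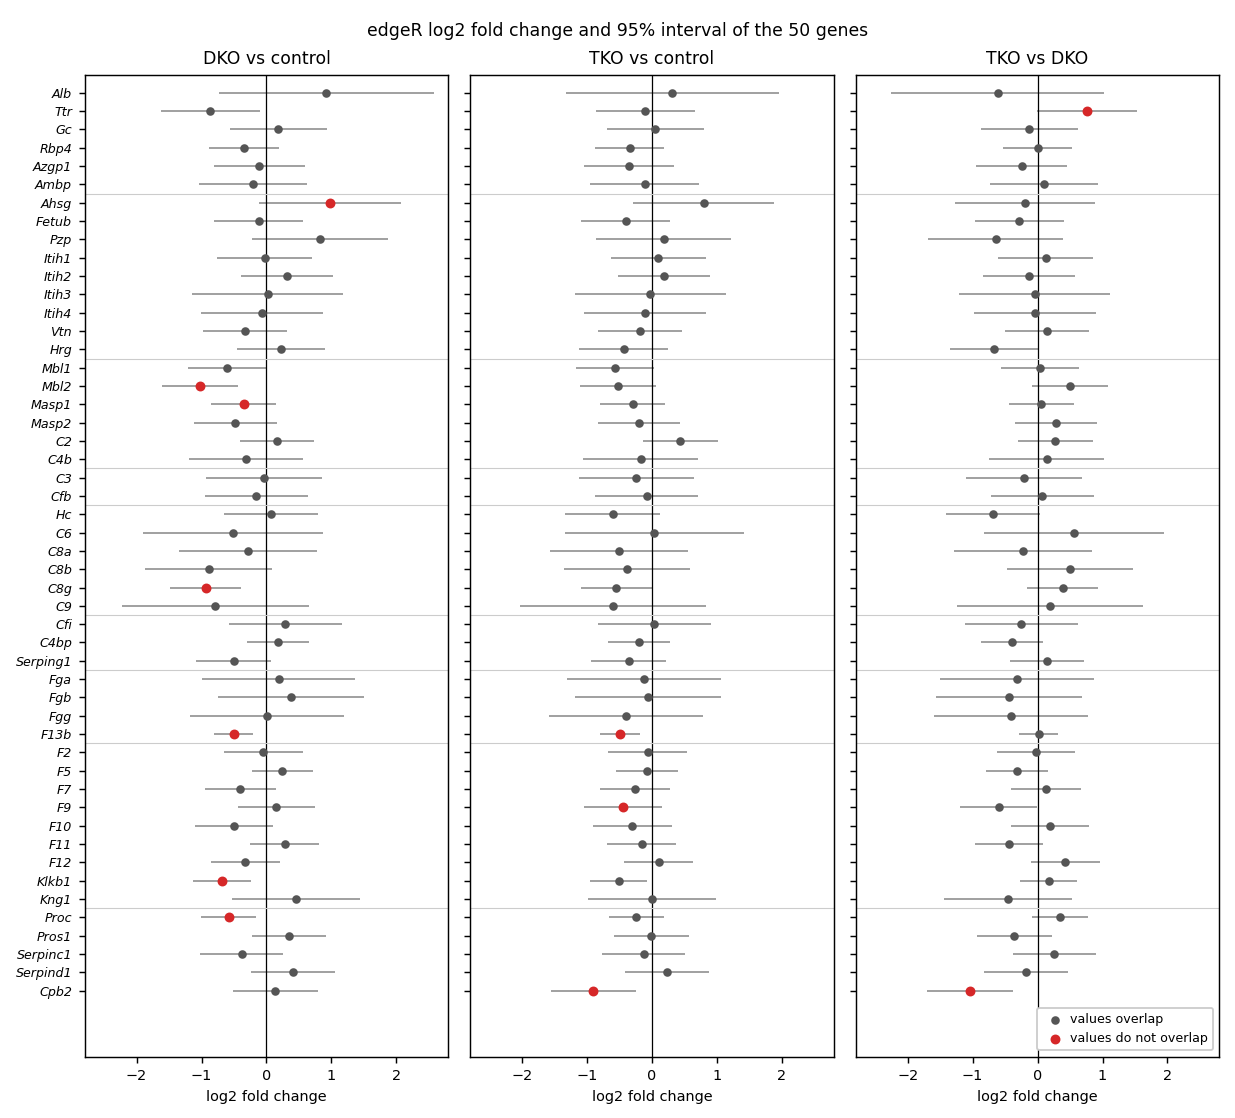
The horizontal axes are edgeR's log2 fold changes with 95% intervals for the 50 genes in the 3 comparisons, in the order of the roles described in the text, and red points are genes whose 4 values in one group all lie above or below the 4 in the other. The red points are 7 genes in DKO vs control, 3 in TKO vs control and 2 in TKO vs DKO.

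The levels of the members differed widely. Per kilobase of exon, Alb (Entrez 11657, mm9 chromosome 5 from 90889915 to 90905629) was highest in control livers at 45730 ± 11190 CPM per kb (SD, n = 4). Gc, which encodes the vitamin D-binding protein, followed at 4482 ± 230.1 CPM per kb, then Ahsg at 4085 ± 603, Fgb at 3992 ± 1224 and Ttr at 3758 ± 1493 CPM per kb. Each of these 4 lay within the larger SD of its neighbor in that order. The lowest were Masp1 at 26.6 ± 1.59, Pros1 at 22.7 ± 7.54 and Hc at 21.2 ± 6.52 CPM per kb, and these 3 lay within the SD of Pros1 of each other.

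Among the albumin and carrier proteins, Alb and Ttr moved apart. Alb, the main protein of plasma, was at 62570, 110400, 111200 and 89600 CPM in control livers, at 286300, 201700, 111700 and 108800 CPM in libraries labelled DKO, and at 152100, 206300, 67000 and 37570 CPM in libraries labelled TKO. DKO 1, DKO 2, TKO 1 and TKO 2 were well above every control liver, DKO 3 and DKO 4 were at the level of the highest of them, and TKO 4 was below them all. Its log2 fold change was 0.92 (SE 0.76, adjusted p = 0.49) in libraries labelled DKO, 0.31 (SE 0.75, adjusted p = 0.883) in libraries labelled TKO and -0.61 (SE 0.76, adjusted p = 0.827) between the genotypes. Without TKO 2 the value for libraries labelled TKO turned to -0.13, and without DKO 1 the values against control livers in DKO and between the genotypes were 0.58 and -0.28.

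Ttr encodes transthyretin, which carries thyroxine and retinol-binding protein. It was at 2229, 6423, 5501 and 4171 CPM in control livers, at 2776, 2767, 1950 and 2588 CPM in libraries labelled DKO and at 5688, 3592, 4655 and 3104 CPM in libraries labelled TKO. Every library labelled TKO was above every library labelled DKO, and control 1 was as low as the libraries labelled DKO while the other control livers were not. The log2 fold change was -0.86 (SE 0.35, adjusted p = 0.162) in libraries labelled DKO against controls and 0.76 (SE 0.35, adjusted p = 0.56) in libraries labelled TKO against DKO. DESeq2 passed the first of these at an adjusted p of 0.0491. Within a library, the ratio of Alb to Ttr in CPM was 17.2 to 28.1 in controls, 42.0 to 103 under the label DKO and 12.1 to 57.4 under the label TKO. This ratio does not depend on library scaling; the pair was picked after its values were seen, and it is given without a test.

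The other carriers stayed closer to the controls. Gc was at 7466 ± 383, 8456 ± 1980 and 7744 ± 2418 CPM in control livers and in libraries labelled DKO and TKO (SD, n = 4 each). Rbp4, the retinol carrier that binds transthyretin, was at 2719 ± 643, 2135 ± 346 and 2140 ± 204 CPM. Its 8 tumor values differed from highest to lowest by 1.41-fold, beside 7.62-fold for Alb. Azgp1, a zinc-binding glycoprotein, was at 1345 ± 76.7, 1246 ± 454 and 1050 ± 358 CPM, and Ambp, the precursor of a small lipocalin and of the inhibitor bikunin, at 1413 ± 294, 1222 ± 544 and 1304 ± 580 CPM. For these 4 genes the adjusted p was between 0.416 and 0.997 in all 3 comparisons.

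Alb and the fibrinogen chain genes are shown with their promoters because they are among the most abundant members. RefSeq's table (build GRCm38.p6) held windows of 250 bases before to 50 bases after the start for 41 of the 50 genes, 44 windows in all, and each window printed here matched a single place in the mm9 genome exactly. Capitals mark matches to the HNF1 motif GTTAAT and to the C/EBP motif TTGCNNAA, searched on both strands; the sequences run 5′ to 3′ on the strand of the gene. They lie at chr5:90889646-90889945 (plus strand, Alb), chr3:82829825-82830124 (plus strand, Fga), chr3:82853736-82854035 (minus strand, Fgb) and chr3:82811396-82811695 (plus strand, Fgg), all in mm9.
Alb: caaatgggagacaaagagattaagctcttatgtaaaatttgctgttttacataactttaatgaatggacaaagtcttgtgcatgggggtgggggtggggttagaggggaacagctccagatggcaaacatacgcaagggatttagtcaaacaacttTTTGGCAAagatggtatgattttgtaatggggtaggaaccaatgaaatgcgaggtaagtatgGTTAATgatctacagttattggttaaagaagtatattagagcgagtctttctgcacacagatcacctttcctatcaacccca
Fga: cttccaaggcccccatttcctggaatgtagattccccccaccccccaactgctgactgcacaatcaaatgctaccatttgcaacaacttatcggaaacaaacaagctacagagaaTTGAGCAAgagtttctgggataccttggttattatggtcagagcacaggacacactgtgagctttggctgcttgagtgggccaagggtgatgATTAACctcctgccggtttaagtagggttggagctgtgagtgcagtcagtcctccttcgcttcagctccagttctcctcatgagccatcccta
Fgb: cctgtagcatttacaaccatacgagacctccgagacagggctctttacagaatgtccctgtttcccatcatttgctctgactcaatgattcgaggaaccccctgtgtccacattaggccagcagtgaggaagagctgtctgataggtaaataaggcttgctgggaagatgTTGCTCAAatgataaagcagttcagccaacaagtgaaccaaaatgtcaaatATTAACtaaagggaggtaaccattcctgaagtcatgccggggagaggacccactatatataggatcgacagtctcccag
Fgg: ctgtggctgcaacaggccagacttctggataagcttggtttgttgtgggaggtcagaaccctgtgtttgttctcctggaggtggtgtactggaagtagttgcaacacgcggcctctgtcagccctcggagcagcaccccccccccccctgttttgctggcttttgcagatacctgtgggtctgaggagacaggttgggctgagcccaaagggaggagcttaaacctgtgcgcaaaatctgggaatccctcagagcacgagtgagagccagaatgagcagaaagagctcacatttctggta

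The HNF1 match began 32 bases before the RefSeq start in Alb, 43 in Fga and 29 in Fgb, and the C/EBP match 94, 135 and 80 bases before it. For Alb, Fgb and Fgg this start lies upstream of the gene positions given in the text, which are from GENCODE. The windows of Fgb and Fgg lie wholly outside those positions, so the distances depend on the start used. The window of Fgg held neither string of letters, and the bases between it and the GENCODE start were not searched. Over the 44 member windows, GTTAAT was present in 13 (29.5%), beside 7.1% of all 32817 windows in the table, and TTGCNNAA in 14 (31.8%), beside 10.8%. The STAT motif TTCNNNGAA was present in 8 (18.2%, beside 8.29%), the FOXA motif TGTTTAC in 4 (9.09%, beside 3.65%) and the HNF4 motif CAAAGTCCA in 0 (beside 0.475%). The motifs can overlap, and a match of letters is a description of the window and not a bound site.

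The fibrinogen chains were spread over the tumors and did not differ between groups beyond that spread. Fga (Entrez 14161), Fgb (Entrez 110135) and Fgg (Entrez 99571) encode the 3 chains of fibrinogen and lie side by side on mm9 chromosome 3, between 82811781 and 82853725. Fga was at 7248, 6740, 5793 and 3548 CPM in control livers, at 12530, 5694, 3605 and 4713 CPM in libraries labelled DKO and at 3861, 9283, 6700 and 1566 CPM in libraries labelled TKO. DKO 1 was the highest library and TKO 4 the lowest.

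Fgb was at 8511, 7184, 6804 and 3752 CPM in control livers, at 15000, 7074, 5512 and 6554 CPM in libraries labelled DKO and at 5081, 10990, 7150 and 1975 CPM in libraries labelled TKO. Fgg was at 6336, 5213, 4123 and 2424 CPM in control livers, at 8728, 4183, 2503 and 2856 CPM in libraries labelled DKO and at 2636, 5496, 4596 and 1038 CPM in libraries labelled TKO. All 3 chains had the same highest and lowest library, and among the control livers all 3 were lowest in control 4. The 3 log2 fold changes ranged from 0.01 to 0.38 in libraries labelled DKO and from -0.39 to -0.06 in libraries labelled TKO, each with an SE of 0.52 to 0.55, and the lowest adjusted p of the 3 genes was 0.691 and 0.772. Leaving out a single library turned the sign of all 3 in libraries labelled DKO and of Fga and Fgb in libraries labelled TKO. The highest tumor was 8.00-fold above the lowest for Fga, 7.59-fold for Fgb and 8.41-fold for Fgg.

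Against this spread, the proportions of the chains were narrow. The ratio of Fga to Fgb in CPM was 0.851 to 0.946 in controls, 0.654 to 0.836 under the label DKO and 0.760 to 0.937 under the label TKO. That of Fgg to Fgb was 0.606 to 0.744, 0.436 to 0.591 and 0.5001 to 0.643. Both ratios were lower in every library labelled DKO than in every control liver, a pattern noticed in the values and given without a test. F13b, the carrier subunit of the fibrin cross-linking factor XIII, behaved otherwise: it was at 255, 326, 303 and 247 CPM in control livers, at 209, 211, 197 and 179 CPM in libraries labelled DKO and at 207, 183, 219 and 195 CPM in libraries labelled TKO. All 8 tumors were below all 4 control livers, and the 8 differed from highest to lowest by 1.22-fold, less than the 1.32-fold among controls.

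F13b (Entrez 14060, mm9 chromosome 1 from 141398284 to 141420333) had a log2 fold change of -0.51 (SE 0.14, adjusted p = 0.0699) in libraries labelled DKO and of -0.49 (SE 0.14, adjusted p = 0.146, the lowest of any member) in libraries labelled TKO. DESeq2 passed both, at adjusted p of 0.00293 and 0.00854. Between the genotypes the value was 0.01 (SE 0.14), with an edgeR adjusted p of 0.981. F13b, Klkb1, Proc, Masp1 and F9 were singled out after their values were seen, because DESeq2 passed them or because their groups did not overlap.

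**Figure D4:**
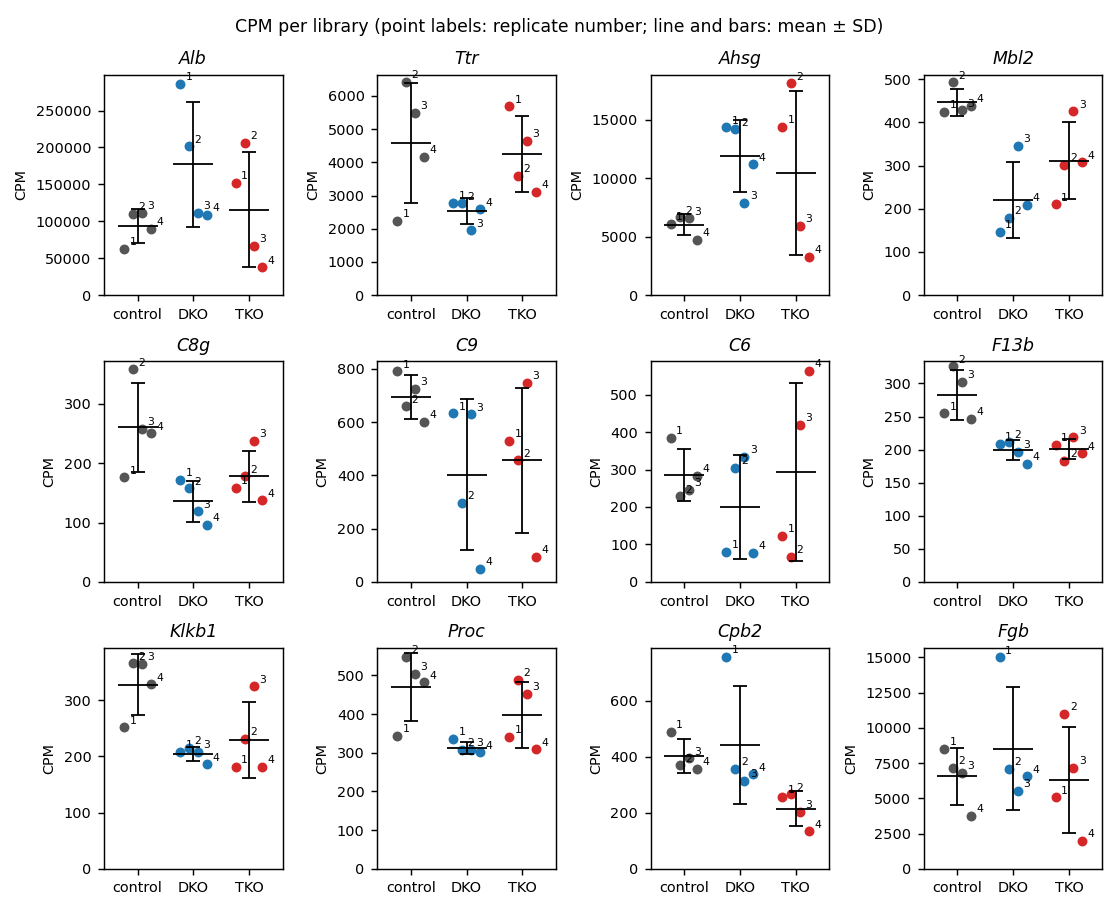
The vertical axes are CPM and each point is a library, labelled with its replicate number, for 12 members in the 3 groups; the horizontal line is the group mean and the bars are the SD (n = 4). All tumors lie below the control livers for F13b and every library labelled DKO does for Mbl2, C8g, Klkb1 and Proc, while C9 splits into high and low tumors in both genotypes.

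Of the protease inhibitors and matrix-binding proteins, Ahsg and Pzp were highest in tumors. Ahsg encodes fetuin-A, an inhibitor of mineral deposition, and lies at mm9 chromosome 16 from 22892115 to 22899511 (Entrez 11625). It was at 6093, 6672, 6577 and 4743 CPM in control livers, at 14360, 14200, 7880 and 11210 CPM in libraries labelled DKO and at 14420, 18140, 5906 and 3270 CPM in libraries labelled TKO. Every library labelled DKO was above every control liver, and those labelled TKO were on both sides. Its log2 fold change was 0.98 (SE 0.50, adjusted p = 0.255, two-sided exact permutation p = 0.0286, the smallest that 4 against 4 allow) in libraries labelled DKO and 0.79 (SE 0.50, adjusted p = 0.461) in libraries labelled TKO. Without TKO 2 the latter was 0.38.

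Ahsg was the only member higher without overlap in libraries labelled DKO than in control livers (2% of the 50, beside 8.87% of all genes). Its neighbor Fetub, which encodes the related fetuin-B, was at 666 ± 136, 613 ± 200 and 503 ± 205 CPM in control livers and in libraries labelled DKO and TKO (SD, n = 4 each). The ratio of Ahsg to Fetub was 7.30 to 10.3 in controls, 14.02 to 30.5 under the label DKO and 11.04 to 30.1 under the label TKO. All 8 tumors, TKO 4 included, were above all control livers in this ratio, which was picked after its values were seen and has no test.

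Pzp, a broad protease inhibitor of the alpha-2-macroglobulin family, was at 7233, 4967, 6768 and 7124 CPM in control livers, at 19660, 12410, 7015 and 7232 CPM in libraries labelled DKO and at 8934, 12120, 5472 and 3101 CPM in libraries labelled TKO. DKO 1, DKO 2 and TKO 2 stood above the controls, and DKO 3 and DKO 4 were within their range. The log2 fold change was 0.83 (SE 0.48, adjusted p = 0.315) in libraries labelled DKO and -0.64 (SE 0.48, adjusted p = 0.706) between the genotypes. Without DKO 1 these were 0.43 and -0.26, and between the genotypes the value was -0.99 without TKO 2 and -0.39 without TKO 4. Hrg encodes the histidine-rich glycoprotein, which binds heparin and plasminogen. It was at 1596, 2126, 1927 and 1519 CPM in control livers, at 3401, 1862, 1711 and 1430 CPM in libraries labelled DKO and at 1336, 1777, 1279 and 897 CPM in libraries labelled TKO. The groups overlapped, and the log2 fold change between the genotypes was -0.67 (SE 0.31, adjusted p = 0.561) and without DKO 1 -0.33.

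The genes of the heavy chain family of the inter-alpha-trypsin inhibitors had group means close to each other. Itih1 was at 825 ± 38.6, 809 ± 312 and 882 ± 389 CPM in control livers and in libraries labelled DKO and TKO, and Itih2 at 1352 ± 145, 1685 ± 433 and 1537 ± 669 CPM. Itih3 was at 1441 ± 540, 1457 ± 990 and 1415 ± 912 CPM, and Itih4 at 3015 ± 495, 2867 ± 1387 and 2792 ± 1527 CPM. Vtn, which encodes the adhesion protein vitronectin, was at 3021 ± 179, 2402 ± 702 and 2652 ± 792 CPM. What differed was the spread: the SD of the tumors was 2 or more times that of the controls for Itih1, Itih2, Itih4 and Vtn. The lowest adjusted p of these 5 genes was 0.531.

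The lectins that start complement were low in most tumors. Mbl2 (Entrez 17195, mm9 chromosome 19 from 30307418 to 30314175) encodes a mannose-binding lectin that binds microbial sugars. It was at 425, 493, 428 and 439 CPM in control livers, at 146, 179, 345 and 208 CPM in libraries labelled DKO and at 211, 302, 426 and 308 CPM in libraries labelled TKO. Every library labelled DKO was below every control liver, and TKO 3 was at the level of the lower controls while TKO 1, TKO 2 and TKO 4 were under it. In edgeR, the log2 fold change was -1.02 (SE 0.27, adjusted p = 0.0633, the lowest of any member in any comparison) in libraries labelled DKO, -0.52 (SE 0.27, adjusted p = 0.366) in libraries labelled TKO and 0.50 (SE 0.27, adjusted p = 0.59) between the genotypes, the last 0.32 without TKO 3 and 0.81 without DKO 3. Without DKO 3 the first value was -1.33 and passed, and DESeq2 passed it at an adjusted p of 0.00655.

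Mbl1, the second mannose-binding lectin of the mouse, was at 192, 184, 136 and 127 CPM in control livers, at 98.5, 88.8, 94.3 and 137 CPM in libraries labelled DKO and at 85.0, 66.2, 176 and 104 CPM in libraries labelled TKO. DKO 4 and TKO 3 were within the control range and the other tumors below it. Its log2 fold changes were -0.61 (SE 0.28, adjusted p = 0.205) and -0.57 (SE 0.28, adjusted p = 0.334), the latter -0.91 without TKO 3. Masp1 encodes a protease carried by these lectins and was at 154, 156, 156 and 174.5 CPM in control livers, at 140, 75.4, 143 and 144 CPM in libraries labelled DKO and at 108, 132, 183 and 99.4 CPM in libraries labelled TKO. Every library labelled DKO was below every control liver, 3 of them by a small margin, and the log2 fold change was -0.35 (SE 0.23, adjusted p = 0.379), or -0.17 without DKO 2. Masp2, which cleaves C4 and C2, was at 147 ± 21.7, 105 ± 34.8 and 128 ± 44.97 CPM in the 3 groups, and 57.7% of the 40-base stretches of its transcript are shared with Tardbp, so that its count is uncertain.

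C2 supplies the protease of the C3 convertase that the classical and lectin pathways share. It was at 133, 126, 131 and 229.8 CPM in control livers, at 216, 159, 205 and 113 CPM in libraries labelled DKO and at 210, 279, 196 and 152 CPM in libraries labelled TKO. Control 4 was as high as the tumors, and the 3 groups overlapped. The log2 fold change of 0.44 (SE 0.27, adjusted p = 0.447) in libraries labelled TKO was among the 4 highest of the members there, and it was 0.69 without control 4 and 0.26 without TKO 2. C4b, the other part of that convertase, was at 1336 ± 335, 1074 ± 491 and 1185 ± 573 CPM. The count of C2 shares 58.9% of its 40-base stretches with the annotated gene Gm20547 and that of C4b 28.7% with C4a.

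C3, on which all complement pathways converge, was at 11370, 8057, 8519 and 14320 CPM in control livers, at 16540, 6713, 8384 and 9623 CPM in libraries labelled DKO and at 7217, 13200, 9179 and 6188 CPM in libraries labelled TKO. The 3 groups overlapped over most of their range. Its log2 fold changes were -0.03 (SE 0.41, adjusted p = 0.97) and -0.24 (SE 0.41, adjusted p = 0.823), and the sign of the first turned with single libraries. Cfb, the protease of the alternative pathway, was at 2041 ± 925, 1834 ± 681 and 1926 ± 606 CPM (SD, n = 4 each). Among controls, control 4 was the highest for C2, C3 and Cfb. The summed level of 18 acute-phase genes outside the members was also highest there, at 40440 CPM beside 13630 to 26960 CPM in the others. Hpx (25890 CPM) and Hp (8352 CPM) gave most of that sum. Saa3 and Saa4 were also highest in control 4, while Saa1, Saa2, Orm1, Apcs and Crp were highest in control 1. The part of these genes in the levels of C2, C3 and Cfb was not tested.

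The terminal components were low in some tumors and not in others. Hc encodes complement C5, whose cleavage opens the terminal pathway. It was at 194, 105, 119 and 114 CPM in control livers, at 235, 155, 87.1 and 83.5 CPM in libraries labelled DKO and at 71.8, 122.5, 84.8 and 69.9 CPM in libraries labelled TKO. TKO 2 lay within the control range and the other libraries labelled TKO below it. The log2 fold change was -0.61 (SE 0.34, adjusted p = 0.398) in libraries labelled TKO against control livers and -0.68 (SE 0.34, adjusted p = 0.576) against libraries labelled DKO. These shrank to -0.37 without control 1 and to -0.31 without DKO 1.

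C9 (Entrez 12279, mm9 chromosome 15 from 6395327 to 6448744) forms the wall of the membrane pore and varied the most of all members over the tumors. It was at 791, 660, 726 and 601 CPM in control livers, at 632, 297, 630 and 49.3 CPM in libraries labelled DKO and at 531, 456, 748 and 93.8 CPM in libraries labelled TKO. DKO 4 and TKO 4 were far below all other libraries, and the highest tumor was 15.2-fold above the lowest. C8b, one chain of C8, which anchors the pore, was at 399, 420, 418 and 290.5 CPM in control livers, at 195, 217, 318 and 96.6 CPM in libraries labelled DKO and at 286, 306, 491 and 81.4 CPM in libraries labelled TKO. DKO 4 and TKO 4 were again the lowest, with C8a, its neighbor on chromosome 4, at 208 and 199.9 CPM in these libraries and at 538 to 1247 CPM in the other tumors. The estimate for C8b was a log2 fold change of -0.89 (SE 0.45, adjusted p = 0.253) in libraries labelled DKO and 0.49 (SE 0.45, adjusted p = 0.759) between the genotypes, and that of C9 was -0.79 (SE 0.66, adjusted p = 0.499) in libraries labelled DKO and -0.60 (SE 0.66, adjusted p = 0.706) in libraries labelled TKO. Without TKO 4 the last value was -0.27 and without TKO 3 -0.95, and that of C8b between the genotypes ran from 0.12 without TKO 3 to 0.80 without TKO 4.

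The same libraries stood apart for Glul, the glutamine synthetase of the hepatocytes around the central vein, a gene outside the 50 that was looked at after these values were seen. Glul was at 463 to 781 CPM in control livers, at 7472 CPM in DKO 4 and at 10330 CPM in TKO 4. DKO 2 was at 3138 CPM and the other 5 tumors at 213 to 574 CPM. The part of this difference in the levels of C8a, C8b and C9 was not tested.

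C6, which binds C5b to start the pore, went another way. It was at 385, 229, 245 and 283 CPM in control livers, at 81.0, 304.5, 334 and 78.3 CPM in libraries labelled DKO and at 122.5, 66.6, 420.3 and 563 CPM in libraries labelled TKO. DKO 1, DKO 4, TKO 1 and TKO 2 were below all control livers, and TKO 4, the lowest tumor for 35 of the 50 genes, was the highest library for C6. Its log2 fold change was 0.56 (SE 0.64, adjusted p = 0.814) between the genotypes, and 0.0287 without TKO 4. C8g, the lipocalin-like chain of C8 (Entrez 69379, mm9 chromosome 2 from 25354171 to 25357239), was at 176, 359, 258 and 251 CPM in control livers, at 172, 158, 119 and 96.6 CPM in libraries labelled DKO and at 159, 178, 237.5 and 137 CPM in libraries labelled TKO. Each library labelled DKO was below each control liver, by a small margin against control 1. By edgeR, its log2 fold change was -0.94 (SE 0.25, adjusted p = 0.0659) in libraries labelled DKO and -0.55 (SE 0.25, adjusted p = 0.304) in libraries labelled TKO, and DESeq2 passed the first at an adjusted p of 0.00991.

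Complement inhibitors did not separate the groups. Cfi, the protease that cuts C3b and C4b, was at 843 ± 109, 1031 ± 505 and 866 ± 447 CPM in control livers and in libraries labelled DKO and TKO (SD, n = 4 each). C4bp, its cofactor on C4b, was at 1203 ± 195, 1365 ± 264 and 1044 ± 148 CPM, and Serping1, the inhibitor of C1 and of plasma kallikrein, at 1245 ± 207, 876 ± 220 and 970 ± 282 CPM. The lowest adjusted p of these 3 genes was 0.264, for Serping1 in libraries labelled DKO. Of 27 other complement genes, among them C1q, C7, the regulator Cd55 and the receptors of the anaphylatoxins, 24 were tested and 0 passed in any comparison. Their log2 fold change was below 0 for 19 of 24 in libraries labelled DKO (median -0.31, from -1.47 for Colec10 to 1.34 for Itgax), for 18 of 24 in libraries labelled TKO (median -0.25, highest 1.12 for Itgax) and for 11 of 24 between the genotypes (median 0.04, highest 1.05 for Fcna). Over all tested genes 51.59%, 52.51% and 51.25% were above 0 in these 3 comparisons.

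Among coagulation factors and contact proteins, log2 fold changes showed no shared direction in libraries labelled DKO and were mostly negative in libraries labelled TKO. For these 9 genes the value was below 0 for 5 and 8, with medians of -0.05 and -0.16. The 8 included Kng1 at -0.00098 (SE 0.45), and of all 50 members 39 were below 0 in libraries labelled TKO. F2, prothrombin (Entrez 14061), was at 1450, 1858, 1797 and 1670 CPM in control livers, at 2257, 1539, 1359 and 1408 CPM in libraries labelled DKO and at 1622, 2319, 1489 and 1029 CPM in libraries labelled TKO. DKO 1 and TKO 2 were above the controls, DKO 3, DKO 4 and TKO 4 below them. Its log2 fold changes were -0.05 (SE 0.28, adjusted p = 0.939) and -0.07 (SE 0.28, adjusted p = 0.934).

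F9, the X-linked factor IX, was at 366, 295, 273 and 259.7 CPM in control livers, at 579.7, 271.5, 248 and 225 CPM in libraries labelled DKO and at 246, 216, 219.9 and 193 CPM in libraries labelled TKO. Each of the libraries labelled TKO was below each control liver, with log2 fold changes of -0.45 (SE 0.27, adjusted p = 0.448) against controls and -0.60 (SE 0.27, adjusted p = 0.554) against libraries labelled DKO. Without DKO 1 the latter was -0.18. F5, the cofactor of factor X, was at 534 ± 99.8, 633 ± 119 and 508 ± 103 CPM in the 3 groups, and F7, which starts the cascade with tissue factor, at 102 ± 14.7, 77.4 ± 14.7 and 84.8 ± 34.6 CPM. F10 was at 517 ± 73.4, 366 ± 73.4 and 419 ± 173 CPM, F11 at 87.5 ± 25.2, 106 ± 27.2 and 78.3 ± 15.0 CPM, and F12 at 353 ± 61.1, 281 ± 41.3 and 378 ± 123 CPM. The lowest adjusted p of F5, F7, F10, F11 and F12 was 0.297, for F10 in libraries labelled DKO.

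The 2 partners of factor XII in the contact system differed from each other. Klkb1 (Entrez 16621, mm9 chromosome 8 from 46354796 to 46393820) encodes plasma prekallikrein and was at 252, 366, 365 and 328 CPM in control livers, at 208, 215, 208 and 186 CPM in libraries labelled DKO and at 181, 231, 325 and 181 CPM in libraries labelled TKO. Every library labelled DKO was below every control liver, within a narrow band, and TKO 3 was the tumor at control level. The log2 fold change was -0.68 (SE 0.20, adjusted p = 0.0806) in libraries labelled DKO, where DESeq2 passed it at an adjusted p of 0.0189, and -0.51 (SE 0.20, adjusted p = 0.243) in libraries labelled TKO. Kng1, the precursor of bradykinin, was at 3157, 2683, 2797 and 1996 CPM in control livers, at 5491, 3827, 2716 and 2520 CPM in libraries labelled DKO and at 3030, 4886, 1781 and 929 CPM in libraries labelled TKO. DKO 1, DKO 2 and TKO 2 were above the controls and TKO 3 and TKO 4 below, and the log2 fold change was 0.45 (SE 0.45, adjusted p = 0.577) in libraries labelled DKO and 0.17 without DKO 1. Kng1 shares 22.2% of its 40-base stretches with Kng2, and Klkb1 10.1% with Cyp4v3.

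Anticoagulants did not move as a group. Proc, the zymogen of protein C, which inactivates factors V and VIII, was at 344, 548, 504 and 482 CPM in control livers, at 336, 308, 308 and 301 CPM in libraries labelled DKO and at 341, 488, 452 and 309 CPM in libraries labelled TKO. Every library labelled DKO was below every control liver, by a small margin against control 1, and those labelled TKO overlapped the controls. In edgeR, its log2 fold change was -0.58 (SE 0.20, adjusted p = 0.103, with DESeq2 0.0281) in libraries labelled DKO and -0.24 (SE 0.20, adjusted p = 0.584) in libraries labelled TKO. Pros1, the cofactor of protein C, was at 92.8 ± 30.8, 118 ± 39.5 and 92.0 ± 22.4 CPM (SD, n = 4 each).

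Serpinc1, antithrombin (Entrez 11905), was at 1785, 2960, 2694 and 2431 CPM in control livers, at 2687, 1695, 1552 and 1640 CPM in libraries labelled DKO and at 2286, 2664, 2670 and 1423 CPM in libraries labelled TKO. DKO 1 lay among the controls and the other libraries labelled DKO below them. Its log2 fold changes were -0.38 (SE 0.29, adjusted p = 0.459), or -0.61 without DKO 1, and -0.13 (SE 0.29, adjusted p = 0.877). Serpind1, heparin cofactor II, was at 970, 1194, 1219 and 1211 CPM in control livers, at 2119, 1706, 1180 and 1095 CPM in libraries labelled DKO and at 1617, 1871, 1019 and 887 CPM in libraries labelled TKO. Here 2 tumors of each genotype were above all control livers, and the log2 fold change was 0.41 (SE 0.30, adjusted p = 0.432) in libraries labelled DKO and 0.23 (SE 0.30, adjusted p = 0.752) in libraries labelled TKO.

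Cpb2 was the member with the largest gap between the tumor genotypes. It encodes a carboxypeptidase that thrombin activates and that slows the breakdown of fibrin (Entrez 56373, mm9 chromosome 14 from 75642094 to 75683358). It was at 488, 369.6, 394 and 357 CPM in control livers, at 756, 358, 315 and 338 CPM in libraries labelled DKO and at 258, 265, 203 and 134 CPM in libraries labelled TKO. Each library labelled TKO was below every control liver and below every library labelled DKO. The log2 fold change was -0.90 (SE 0.30, adjusted p = 0.187) against control livers and -1.04 (SE 0.30, adjusted p = 0.446, two-sided exact permutation p = 0.0286) against libraries labelled DKO, and 0.14 (SE 0.30, adjusted p = 0.82) in libraries labelled DKO against control livers. DESeq2 did not pass it either. Without DKO 1, the highest library, the gap between the genotypes was -0.64 (edgeR adjusted p = 0.752).

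Over all roles, the groups did not overlap for few members. In libraries labelled DKO 6 members were below all control livers (Mbl2, Masp1, C8g, F13b, Klkb1 and Proc, 12% beside 7.3% of all genes). In libraries labelled TKO 3 were below (F13b, F9 and Cpb2, 6% beside 3.29%) and 0 above (beside 4.38%). Between the genotypes Ttr was higher (2% beside 2.75%) and Cpb2 lower (2% beside 2.12%) in every library labelled TKO than in every library labelled DKO.

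The tumors differed widely among themselves. DKO 1 was above all 4 control livers for 28 members and below them for 10, and TKO 2 for 22 and 11. TKO 4 was above them for 1 member (C6) and below for 43. In DKO 2, DKO 3, DKO 4 and TKO 1 between 2 and 8 members were above and between 24 and 33 below, and TKO 3 was nearest to the controls, with 5 above, 13 below and 32 within their range. Over all tested genes 21.5% to 29.8% were above and 19.8% to 26.6% below the control range in these libraries. TKO 4 was the lowest tumor for 35 of the 50 genes and DKO 1 the highest for 25.

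**Figure D5:**
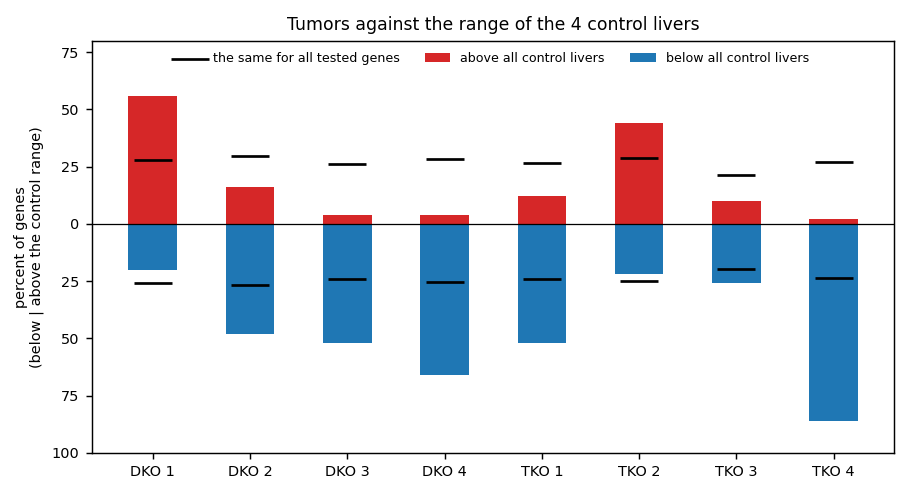
The bars are the percent of the 50 genes above (upward) or below (downward) all 4 control livers in each tumor library, and the black marks are the same percent over all tested genes. TKO 4 has 43 of the 50 genes below the controls and DKO 1 has 28 above, while the marks lie between 19.8% and 29.8%.

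The spread between libraries was larger in the tumors. The median SD of log2 CPM over the 50 genes was 0.25 in controls, 0.48 under the label DKO and 0.54 under the label TKO. Over the 1470 tested genes with a mean level at least as high as the lowest member it was 0.25, 0.28 and 0.35. The SD of a member was above its SD in control livers for 40 of 50 in libraries labelled DKO and for 39 of 50 in libraries labelled TKO. The share of all tested genes for which this held was not counted, so these counts have no background beside them. TKO 4 also had the lowest summed level of the 12 other hepatocyte markers, 13690 CPM, followed by DKO 4 with 17030 CPM. In TKO 4 the summed levels of the markers of endothelial cells (231 CPM), macrophages (329.7 CPM), stellate cells and fibroblasts (363 CPM), biliary cells (42.2 CPM) and lymphocytes (16.6 CPM) were all within the range of the control livers. Single markers in these sums went both ways. Of the macrophage and endothelial markers, Clec4f (28.4 CPM), Cd5l (25.5 CPM), Marco, Timd4 and Clec4g (13.3 CPM) were below every control liver in TKO 4. Cd68 (23.2 CPM), Pecam1 (32.7 CPM), Cdh5 and Lyve1 were above every control liver there.

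The marker lists were checked as a whole. Of 10 endothelial, 9 macrophage, 10 stellate cell and fibroblast, 5 biliary and 9 lymphocyte markers tested, 0 passed in any comparison. Their summed levels were 179.9 to 282 CPM (endothelial), 320.3 to 938 CPM (macrophage), 322 to 553 CPM (stellate cell and fibroblast), 28.9 to 50.5 CPM (biliary) and 13.3 to 41.0 CPM (lymphocyte) in control livers. In the tumors they were 212 to 466, 299.6 to 935, 198 to 699.5, 25.4 to 112 and 10.7 to 35.0 CPM, with the highest biliary, stellate cell and fibroblast sums in DKO 3. The biliary marker Krt7 was below 1 CPM in every library. Of the 12 other hepatocyte markers 0 passed, with medians of -0.67 in libraries labelled DKO (from -1.43 for Pck1 to 0.31 for Apoa1), -0.62 in libraries labelled TKO (from -1.65 for Pck1 to 0.44 for Apoa1) and 0.07 between the genotypes.

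Genes around the same pathways gave 3 calls. Of 25 other coagulation and fibrinolysis genes, 2 were higher in libraries labelled DKO than in control livers and 0 lower, with 0 in the other comparisons. Among them, Thbs1, which encodes thrombospondin-1, was at 2.71 to 4.97 CPM in control livers and at 7.75 to 11.67 CPM in libraries labelled DKO (adjusted p = 0.0344). Of 13 hepatocyte transcription factors, the bile acid receptor Nr1h4 was lower in libraries labelled DKO, at 53.9 to 93.1 CPM beside 109 to 148 CPM in control livers (log2 fold change -0.85, SE 0.18, adjusted p = 0.0425), and 0 passed in the other comparisons. Cebpa, which encodes a C/EBP factor, was at 201 to 354 CPM in control livers and at 115 to 286 CPM in the tumors. Of the 18 acute-phase genes outside the members 0 passed, with medians of -0.40, -0.71 and -0.32 in the 3 comparisons and with Saa3 the lowest in both comparisons with control livers (-2.83 and -2.36).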

How the data were processed

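Poly(A) RNA of 12 snap-frozen livers and tumors was made into SOLiD libraries and sequenced as 40-base reads. The authors aligned them to mm9 (NCBI37) by BWA and summed them over genes by FeatureCounts. The deposited values are the resulting raw counts of 26301 Entrez genes, not normalized. The versions used, whether counting was stranded and what was done with reads of several places are not given in the sources used here, which leaves uncertain how reads were divided between overlapping genes or close copies. Groups and replicate numbers came from the sample titles, 4 libraries per group. The study's methods give 4 livers for each condition.

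Symbols were matched to 24191 Entrez identifiers, which took 99.4% of all counts. Genes were tested with edgeR 4.0.16 in R 4.3.3 (TMM, filterByExpr, quasi-likelihood test, all 12 libraries, a mean per group, Benjamini-Hochberg at 0.05). The fit was tested on simulated data. DESeq2 1.42.0, run on genes with at least 1 count, and limma 3.58.1 (voom with quality weights) were alternatives, beside other scalings and filters, fits restricted to the 8 libraries compared, a block for the replicate number, a covariate made of sex-linked genes, a threshold of 0.1, and fits without each library. Leaving out DKO 1 and TKO 4 together was chosen after seeing the data. For single genes, a two-sided exact permutation test was run on log2 CPM (prior count 2) over 70 assignments, whose smallest p is 0.0286. The members and the other lists were chosen with earlier results of these data known. Values in every library were given for the 4 highest and 4 lowest log2 fold changes among the members in each comparison and for Alb, Ttr, C3, F2, Fga, Fgb, Fgg and Serpinc1; F13b, Klkb1, Proc, Masp1 and F9 were added after their values were seen. Of the other lists, counts and extremes were given, and some of their genes are not reported here.

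Coordinates are 1-based mm9 positions from GENCODE vM1, matched by symbol, and lengths are those of the merged exons. Shared stretches are 40-base windows of a gene's exons found in other genes. The total counts of 9165812 to 16424973 gave every member at least 612 counts in each library, so the spread between libraries, not counting error, set the precision. No pair of libraries differed by less than the sampling noise.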

Additional observations from a re-analysis of the deposited data

Results flagged for a closer look

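In 14 of 150 sets of 4 libraries (50 genes in 3 groups, 9.33%), the highest or lowest library stood apart from the other 3 by more than Dixon's 95% critical value for the gap divided by the range. For independent normal values about 1 in 20 would do so. The 50 genes share the same 4 libraries in each group, so the sets are not independent, and whether 9.33% is an excess was not tested. Values are CPM.

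Control livers gave 8 of these. Control 4 was high for Cfb, at 3427 beside 1538 to 1603 in the other 3, for C2 at 229.8 beside 126 to 133 and for Masp1 at 174.5 beside 154 to 156, and low for C8b at 290.5 beside 399 to 420. Control 1 was high for Pros1, at 139 beside 75.2 to 80.8, and low for Masp2 at 115 beside 154 to 163 and for Serpind1 at 970 beside 1194 to 1219. Control 2 was high for F7, at 124 beside 92.5 to 96.4.

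Among libraries labelled DKO, DKO 1 was high for Itih4 at 4941 beside 2060 to 2307, for Serpinc1 at 2687 beside 1552 to 1695 and for Cpb2 at 756 beside 315 to 358. DKO 2 was low for Masp1 at 75.4 beside 140 to 144, and DKO 4 was high for Pros1 at 177 beside 95.4 to 103. Among libraries labelled TKO, TKO 4 was low for Azgp1 at 526 beside 1140 to 1322. C2 and Cfb share most of their 40-base stretches with Gm20547 and Masp2 with Tardbp.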

How the results depend on the processing

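With edgeR, 0 of 50 members passed in each comparison under every scaling and filter tried. In libraries labelled DKO against control livers, 6 members passed with DESeq2, all as lower (12% beside 4.75% of all genes). Voom with quality weights passed 5 (Mbl2, C8g, F13b, Klkb1 and Proc), beside 1804 of 13882 genes. At an adjusted p of 0.1, 4 passed (Mbl2, C8g, F13b and Klkb1), beside 1460 of 13882 genes. With voom and at 0.1 the share of members was below that of all genes. With the 8 libraries alone 1 passed (Klkb1, beside 759 genes), and 0 to 3 passed when a library was left out (beside 0 to 651 genes). In libraries labelled TKO DESeq2 passed 1, and between the genotypes 0 passed throughout. The number of all genes that passed also moved, and it is out of 13882 genes in the main test, not out of 50. For DKO against control (336) it was 1518 with DESeq2, 759 with the 8 libraries alone, 1804 with voom, 1460 at 0.1, 59 with total counts as the only scaling, 0 with the covariate from sex-linked genes, 1 without DKO 1 and TKO 4, and 0 to 651 without single libraries. For TKO against control (12) it was 507 with DESeq2, 22 without a filter, 97 with voom, 80 at 0.1, 0 with the covariate, 4 without DKO 1 and TKO 4, and 0 to 231 without single libraries. DESeq2 gave 56 between the genotypes. Members below 0 between the genotypes (26) were 11 without DKO 1 and TKO 4 and 15 to 32 without single libraries.

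With the replicate number as a replicate block, 1 member (Mbl2) and 509 genes passed in DKO against control and 1 gene in TKO against control. Of 12 libraries, 6 correlated best with a library of their own number, and the correlations of same-numbered pairs ran from -0.17 to 0.37. The highest were between DKO and TKO, at 0.37 for number 3 and 0.34 for number 4. In each group the numbers follow the alphabetical order of the codes in the sample descriptions. Neither the titles nor the codes name pairs across groups, so the block is a fit by number and not by a known pairing.

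Of 1357 values of single members under an alternative, 1288 kept direction and side of the threshold, 22 passed where the reported value did not, and 47 changed sign; the cause was not tested. With total counts only, sign changed for Fgg (DKO against control, -0.0444), for Ttr (0.0647), Fgb (0.00484), F2 (0.0457) and Serpinc1 (0.00727) in TKO against control, and for F2 between the genotypes (0.0707). With voom it changed for C3 (DKO, 0.0669) and F13b (genotypes, -0.0223), and with the covariate for Fga (DKO, -0.11), Fgg (DKO, -0.29), F9 (DKO, -0.12), Alb (TKO, -0.0318) and F2 (genotypes, 0.0448). Without single libraries, the ranges were, for DKO against control, C3 -0.37 to 0.15, F2 -0.25 to 0.0354, Fga -0.33 to 0.39, Fgb -0.0543 to 0.54, Fgg -0.52 to 0.22, F9 -0.28 to 0.30, and, passing without DKO 3 or TKO 3, Mbl2 -1.33 to -0.88, C8g -1.09 to -0.75 and Klkb1 -0.79 to -0.63. For TKO against control they were Alb -0.13 to 0.59, Ttr -0.33 to 0.10, Fga -0.53 to 0.17, Fgb -0.47 to 0.23, F2 -0.30 to 0.0885 and Serpinc1 -0.26 to 0.0344, and between the genotypes C3 -0.46 to 0.13, Fga -0.72 to 0.20, Fgg -0.73 to 0.12, F2 -0.25 to 0.18, F13b -0.0341 to 0.0550, Masp1 -0.15 to 0.16 and Klkb1 -0.0456 to 0.27. The members' share of counts in control livers was 18.5% of the TMM-scaled total. Without Alb the 3 groups were at 8.77%, 9.69% and 9.10% of the total count, which was not TMM-scaled. In the 250 bases before the RefSeq start alone, GTTAAT was in 27.3% of member windows (beside 6.44%) and TTGCNNAA in 27.3% (beside 9.57%).

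The limits are those of 4 libraries per group. Tumors were spread widely, a single library moved several values, and genotype and tumor growth cannot be told apart against the controls. All 12 libraries carried reads of Y-linked genes and Xist near 0, so that the covariate from sex-linked genes measured something other than sex.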
